A study of Mus musculus with 6 samples.

Results

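The cytosolic ribosomal protein genes encode the proteins of the large (Rpl and Rplp genes) and small (Rps genes and Rpsa) subunits of the ribosome that translates nuclear messages. They were chosen by symbol: Rpl or Rps with a number and at most 1 closing letter a, x, y or l, Rplp0 to Rplp2, and Rpsa, without pseudogene symbols. The rule took 80 of the 41327 genes in the count table, 49 for the large and 31 for the small subunit, and used no measured value. A test was possible for 77 members. Rpl10l had 1 count and Rpl3l 3 counts over all libraries, and Rpl39l had none. In other mouse tissues these are paralogs of restricted use, Rpl10l and Rpl39l in testis and Rpl3l in heart and skeletal muscle.

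The cells were ID8, a line derived from the ovarian surface epithelium of C57BL/6 mice, grown asynchronously and untreated. The groups were Trp53-/- cells (Trp53_KO, 3 libraries) and Trp53+/+ cells (Trp53_WT, 3 libraries), and Trp53 encodes the tumour suppressor p53. The labels do not say how the deletion was made, whether each genotype is 1 clone, or whether replicates were separate cultures. The p-values therefore speak of variation among these 6 libraries, possibly technical, and a difference of genotype and a difference between clones cannot be told apart.

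Most ribosomal proteins are needed in equal amounts and are assembled with ribosomal RNA in the nucleolus, from which the subunits are exported. Their messages carry a short run of pyrimidines at the 5′ end, the terminal oligopyrimidine (TOP) motif, through which mTOR signalling and Larp1 control their translation. When assembly fails, free Rpl5 and Rpl11, bound to 5S ribosomal RNA, inhibit Mdm2, the ubiquitin ligase that degrades p53. RNA level, which is what was counted here, is only 1 layer of this control.

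Libraries held 16597529 to 19574772 gene counts in Trp53_KO and 15319956 to 19954170 in Trp53_WT. Trp53 RNA itself followed the labels, at 26.8 ± 2.4 CPM (library-scaled read counts, with TMM factors) in Trp53_KO and 104 ± 6.4 CPM in Trp53_WT (SD, n = 3 each). Trp53_WT replicate 1 stood apart from the rest of its group on a minor axis of a multidimensional scaling (5.0% of the variance), and the main count below is also given without it. Of 10 markers of ovarian surface epithelium, 4 were higher and 4 lower in Trp53_KO, and their sum was 3380 to 3674 CPM in Trp53_KO and 3325 to 3420 CPM in Trp53_WT. Some differed widely. Lrrn4 was at 65.5 ± 0.81 CPM in Trp53_KO and 0.235 ± 0.094 CPM in Trp53_WT, Upk3b at 531 ± 52 CPM in Trp53_KO and 73.7 ± 5.0 CPM in Trp53_WT, and Bnc1 at 0.0726 ± 0.030 CPM in Trp53_KO and 38.9 ± 1.9 CPM in Trp53_WT (SD, n = 3 each).

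Markers of other cell types also moved with genotype. All 3 tested fibroblast markers of 6 were higher, their sum was 229 to 251 CPM in Trp53_KO and 101 to 108 CPM in Trp53_WT, nearly all of it Dcn, and Lum and Pi16 were at 0. Of 3 tested granulosa markers of 6, Star and Inha were higher, and Fshr, Cyp19a1 and Foxl2 were at 0. The third, Amh, had a log2 fold change of -0.54 and was not called. The granulosa sum was 24.0 to 26.6 CPM in Trp53_KO and 4.65 to 5.47 CPM in Trp53_WT. Star made up most of it in Trp53_KO, at 21.5 ± 1.0 CPM there and 2.62 ± 0.47 CPM in Trp53_WT (SD, n = 3 each). The 1 tested endothelial marker, Pecam1, was higher (sum 1.70 to 2.41 CPM in Trp53_KO and 0.198 to 0.214 CPM in Trp53_WT), with Cdh5, Kdr and Emcn at 0. The immune markers summed to 3.86 to 4.18 CPM in Trp53_KO and 4.86 to 5.20 CPM in Trp53_WT, and 4 of 6 were at 0. The part of these differences in the results below was not tested.

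The start regions of a few members are shown because they carry a pyrimidine run that was found in most member windows. RefSeq start windows, from 250 bases before to 50 after the annotated start, matched 60 of the 80 members. The search was for a C followed by at least 7 letters C or T on the sense strand, from 30 bases before to 50 after the start. It was found in 46 of 60 members (76.7%), against 23.0% of 27025 windows of all genes. The search did not ask for the run at the first base of the message. A run found is therefore not shown to be the TOP motif. Counted in bases from the annotated start, it began at 14 in Rpl11, 27 in Rpl36a and 4 in Rps26. In Rps6, Rps27 and Rps27l it began before the start, at -1, -2 and -22. In the sequences below (RefSeq, GRCm38.p6, 5′ to 3′ on the strand of the gene) the capitals mark this run.
Rpl11, chr4:136053358-136053387, minus strand: ccggaagtCTCCCTCTCTCTTCCTgttctc
Rps6, chr4:86857347-86857376, minus strand: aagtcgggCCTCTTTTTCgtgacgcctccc
Rps26, chr10:128626481-128626510, minus strand: cgccggatCCTCTTTCgagtcttggctcca
Rps27, chr3:90213629-90213658, minus strand: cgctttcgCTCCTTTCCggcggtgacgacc
Rps27l, chr9:66946056-66946085, plus strand: cgcctccaCTCCTCTCCactcctccccgcc
Rpl36a, chrX:134585673-134585702, plus strand: ggctctagCCTCTCTCTTTCCgagctgcta
The first 4 of these genes were higher in Trp53_KO and Rps27l and Rpl36a were not called, so the run is present on both sides. Of tested members with the run, 21 of 44 were called higher (median log2 fold change 0.17), and of those without it, 5 of 13 (median 0.17), where 14.1% of all tested genes were called higher. Among other motifs sought on both strands of the 300 bases, CCGGAAG, the core bound by ETS factors, was in 40.0% of member windows and 9.12% of all. The E-box CACGTG was in 8.33% of member windows and 7.24% of all, AAGATGG in 13.3% and 6.48%, and TATAAA in 8.33% and 14.2%.

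The first comparison asked whether the members' RNA differed between the genotypes. The RNA of most members was slightly more abundant in Trp53_KO. By edgeR's quasi-likelihood test with Benjamini-Hochberg adjustment over all tested genes, 35 of 77 tested members were higher in Trp53_KO, 0 were lower and 42 were not called at an adjusted p under 0.05, while 14.1% of all 13651 tested genes were called higher and 16.1% lower (30.3% in either direction). At an unadjusted p under 0.05, 50 members (64.9%) and 40.4% of all tested genes differed. The log2 fold change was positive for 73 of 77 members, with a median of 0.17, a standard deviation over members of 0.097 and a range of -0.17 to 0.46, beside a median of -0.02 over all tested genes. All 3 Trp53_KO libraries lay above all 3 Trp53_WT libraries for 63 members (21.8% of all tested genes did so), and below them for 1 member, Rpl39 (24.2%). Among the 4430 tested genes at least as abundant as the lowest tested member, 16.4% were called higher and the median was 0.02.

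The number of calls moved with the libraries used. Without Trp53_WT replicate 1, 33 members were called higher, 32 of them among the 35, where 17.4% of tested genes were. Without Trp53_WT replicate 2 the count was 9, and without Trp53_WT replicate 3 it was 21. It was 19, 19 and 14 without Trp53_KO replicates 1, 2 and 3. Only for the fit without Trp53_WT replicate 1 is the share of all tested genes given. The other counts are therefore not read as particular to the members. Over the fits without a library the members' median log2 fold change was 0.156 to 0.202. No member was called lower in any of these fits, in which edgeR's quasi-likelihood test was used. Against a fold of 1.2 the only member called was Rps16.

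**Figure D1:**
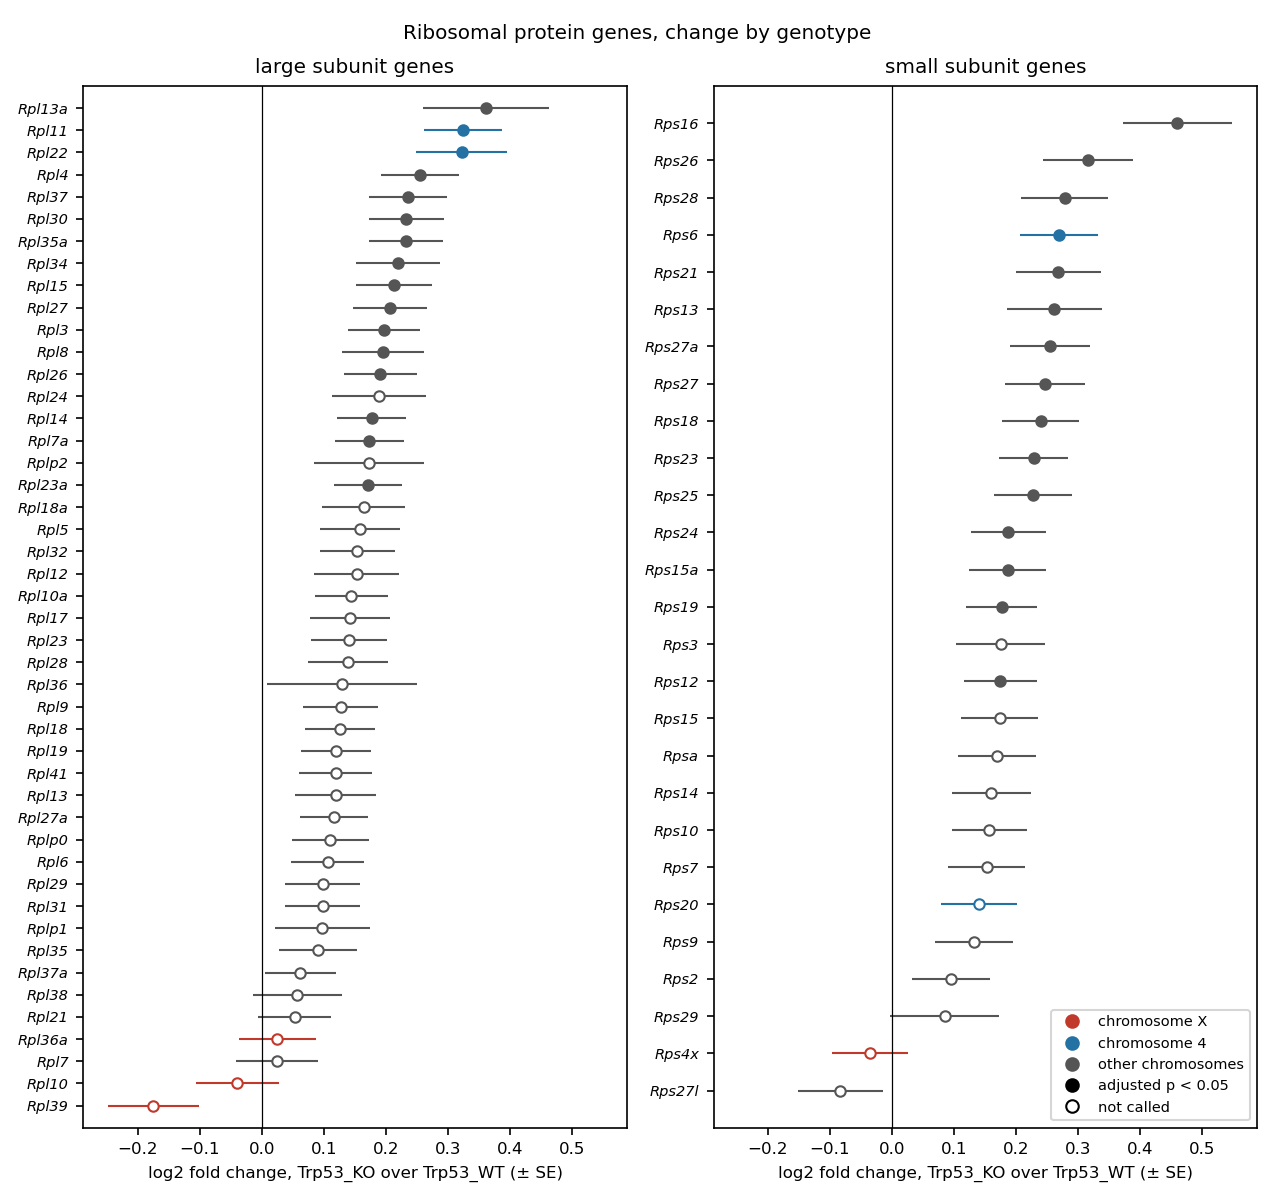
Log2 fold change of Trp53_KO over Trp53_WT (x axis, with standard error) for 73 of the 77 tested members, large subunit left and small subunit right. Filled points had an adjusted p under 0.05, and the 4 X-linked members (red) lie at or left of most others.

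Summed over the family, members took 2.77%, 2.86% and 2.88% of gene counts in Trp53_KO, against 2.40%, 2.54% and 2.62% in Trp53_WT. The groups did not overlap, and the means were 2.83 ± 0.059% in Trp53_KO and 2.52 ± 0.11% in Trp53_WT (SD, n = 3 each). The difference of 0.31 percentage points had an exact two-sided permutation p of 0.1, the smallest that 3 against 3 libraries allow. These are shares of the counted RNA, so more ribosomal protein RNA and less of other RNA cannot be told apart, nor can a change in each cell and a change in the mixture of cells. Malat1, an abundant nuclear non-coding RNA, took 0.695 ± 0.049% of counts in Trp53_KO and 1.06 ± 0.019% in Trp53_WT. With Malat1 and mitochondrially encoded genes left out of the total, the member share was 2.90 ± 0.063% in Trp53_KO and 2.60 ± 0.11% in Trp53_WT. The 77 mitochondrial ribosomal protein genes, which serve the separate ribosome of that organelle, took 0.346 ± 0.0035% in Trp53_KO and 0.320 ± 0.023% in Trp53_WT. These shares did not overlap either, at 0.343 to 0.350% in Trp53_KO and 0.294 to 0.334% in Trp53_WT (exact two-sided permutation p = 0.1). Of these genes 9 (11.7%, against 14.1% of all tested genes) were higher and 0 lower. Their log2 fold change was positive for 61 and negative for 16, with a median of 0.09.

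**Figure D2:**
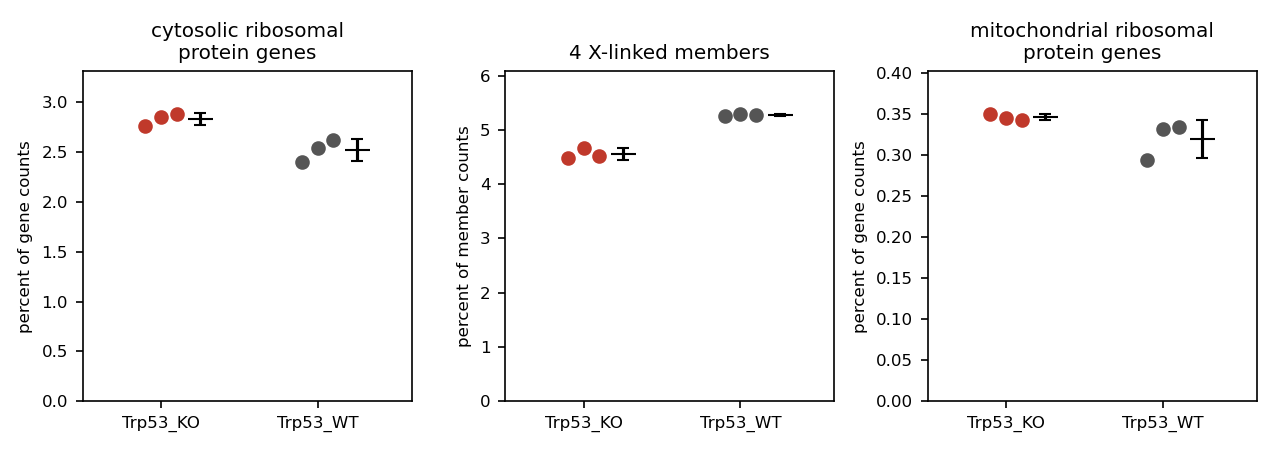
Percent of gene counts on the members (left), percent of member counts on the 4 X-linked members (middle) and percent of gene counts on mitochondrial ribosomal protein genes (right), by library, with mean and SD of 3. Members hold 2.77 to 2.88% in Trp53_KO and 2.40 to 2.62% in Trp53_WT, and the X-linked part is lower in every Trp53_KO library.

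In the small subunit 19 of 31 tested members were higher, with a median log2 fold change of 0.19. Of all tested genes, 14.1% were called higher. Rps16 (chromosome 7, 28350652 to 28353155, GRCm38), whose tail reaches the transfer RNA in the subunit, had the largest change of the family. It was at 166.7, 158.5 and 174.7 CPM in Trp53_KO, against 136.7, 108.9 and 118.1 CPM in Trp53_WT. The groups did not overlap, and the log2 fold change was 0.46 ± 0.088 (SE, edgeR adjusted p = 0.00337). Rps16 was the only member called in each of 17 settings tried.

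Rps6, the substrate of S6 kinase that is used as a readout of mTOR signalling, lies on chromosome 4 (86854660 to 86857412). It was at 448.1, 489 and 437.5 CPM in Trp53_KO and 373.2, 384.6 and 382.2 CPM in Trp53_WT. Every Trp53_KO library was above every Trp53_WT library, with a log2 fold change of 0.27 ± 0.063 (edgeR adjusted p = 0.00976). Rps26 (chromosome 10, 128624534 to 128626747), which sits where messages leave the small subunit, was at 207.2, 183.5 and 213.9 CPM in Trp53_KO and 159.6, 157.7 and 168.5 CPM in Trp53_WT. Its groups did not overlap either (log2 fold change 0.32, edgeR adjusted p = 0.00907). Rps23, at the decoding centre, had a log2 fold change of 0.23 (edgeR adjusted p = 0.012), and its call was lost without Trp53_WT replicate 2.

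Other called members of the small subunit included Rps28, Rps21, Rps13, Rps27a, Rps27, Rps18, Rps25, Rps24, Rps15a, Rps19 and Rps12, with log2 fold changes of 0.17 (Rps12) to 0.28 (Rps28). Rps28 was at 151.4, 143.4 and 157.9 CPM in Trp53_KO and 133, 118.5 and 121.9 CPM in Trp53_WT, and its groups did not overlap, though the call was lost without Trp53_KO replicate 3 or Trp53_WT replicate 2. Rps12 was close to the threshold (edgeR adjusted p = 0.0484) and was called in 3 of 16 alternatives.

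The small subunit members that were not called include Rpsa, also known as the laminin receptor, at 761 ± 15 CPM in Trp53_KO and 677 ± 39 CPM in Trp53_WT (log2 fold change 0.17, edgeR adjusted p = 0.0731). Rps29 was at 117.9, 110.5 and 137.4 CPM in Trp53_KO and 120, 108.9 and 116.3 CPM in Trp53_WT, and its groups overlapped.

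In the large subunit 16 of 46 tested members were higher, with a median log2 fold change of 0.14, beside the 14.1% of all tested genes. Rpl11 (chromosome 4, 136028265 to 136053428), part of the 5S particle that inhibits Mdm2, was at 280.7, 297.2 and 305.5 CPM in Trp53_KO and 225.6, 236.3 and 243.5 CPM in Trp53_WT. The groups did not overlap, with a log2 fold change of 0.32 ± 0.062 (edgeR adjusted p = 0.00335). Rpl5, its partner in that particle, was at 647.6, 693.2 and 656.9 CPM in Trp53_KO and 559.7, 608.5 and 621.2 CPM in Trp53_WT. These groups did not overlap either, but the log2 fold change of 0.16 was not called (edgeR adjusted p = 0.0969), and the difference between Rpl11 and Rpl5 was not tested. Rpl23, another Mdm2-binding member, was also not called (0.14, edgeR adjusted p = 0.115), and Rpl26, which in human cells binds p53 mRNA, was called (0.19, edgeR adjusted p = 0.0352). The Rpl26 call held in 10 of 16 alternatives and was lost with the replicate block and when replicate 2 or 3 of either genotype was left out.

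Rpl13a (chromosome 7, 45125558 to 45128761), picked out after its values were seen, was at 206.4, 195.6 and 194.4 CPM in Trp53_KO and 129.4, 159.4 and 175.3 CPM in Trp53_WT. Its log2 fold change of 0.36 (edgeR adjusted p = 0.0237) was no longer called when any of the 3 Trp53_KO libraries was left out. Rpl3, which reaches towards the peptidyl transferase centre, was at 1035 ± 19 CPM in Trp53_KO and 903 ± 27 CPM in Trp53_WT (log2 fold change 0.20, edgeR adjusted p = 0.0299). The Rpl3 call held in 9 of 16 alternatives and was lost with the replicate block and without any library other than Trp53_WT replicate 1. Rpl4, which reaches into the exit tunnel, was at 1042, 1133 and 1071 CPM in Trp53_KO and 870.1, 918.3 and 930.5 CPM in Trp53_WT, without overlap (0.26, edgeR adjusted p = 0.0129). The remaining called members, Rpl37, Rpl30, Rpl35a, Rpl34, Rpl15, Rpl27, Rpl8, Rpl14, Rpl7a and Rpl23a, had log2 fold changes of 0.17 (Rpl23a) to 0.24 (Rpl37). Rpl8 was close to the threshold (edgeR adjusted p = 0.0494) and was called in 6 of 16 alternatives.

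The stalk proteins Rplp0, Rplp1 and Rplp2, which recruit the GTPases of translation, were not called, with log2 fold changes of 0.11, 0.10 and 0.17. Rpl36 varied widely for its level between Trp53_KO libraries, at 151, 138.8 and 198.1 CPM in Trp53_KO and 141.7, 158.7 and 145.7 CPM in Trp53_WT.

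**Figure D3:**
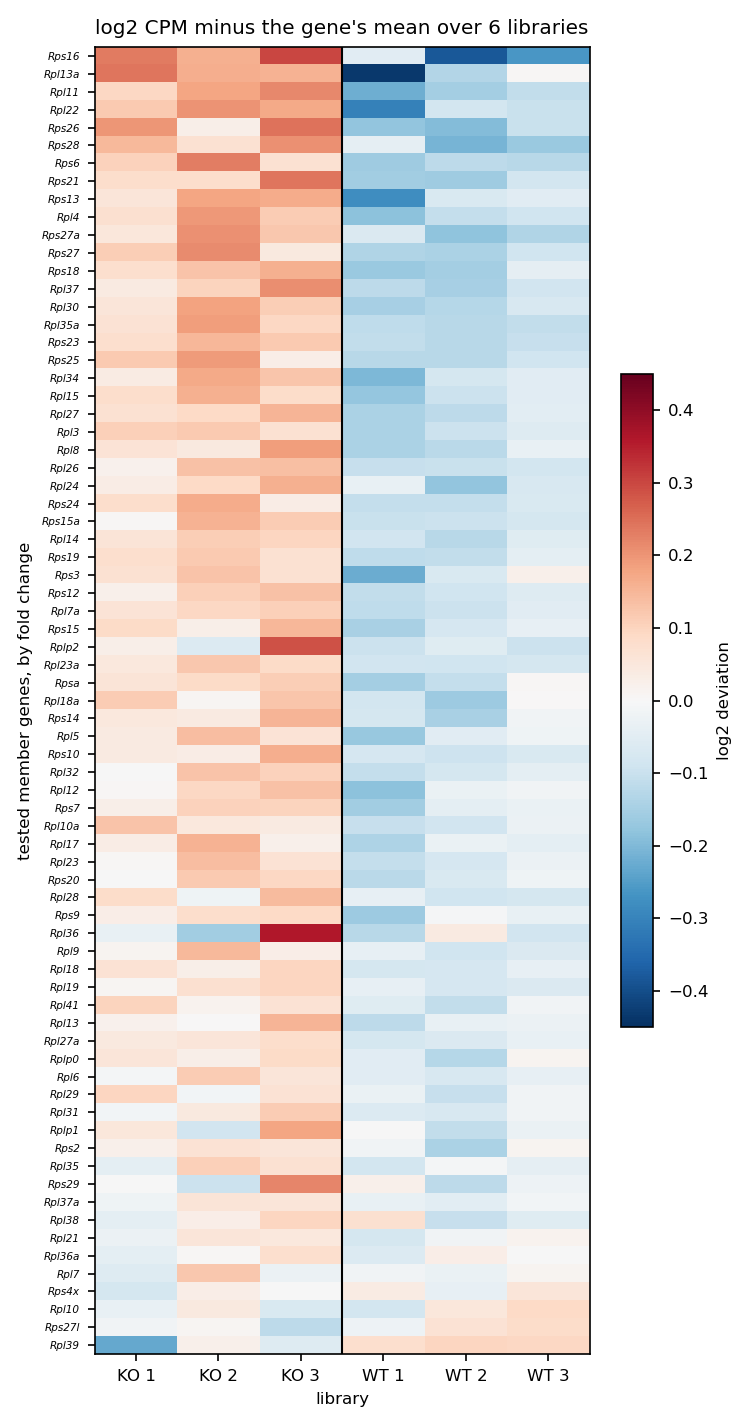
Log2 CPM of 73 tested members, each minus its mean over the 6 libraries (colour), with genes ordered by fold change and libraries as columns, Trp53_KO left of the line. Most rows are positive in the 3 Trp53_KO libraries and negative in the 3 Trp53_WT libraries, and the rows at the bottom, with Rpl39 last, are not.

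Library by library, the family's position was as follows. The median deviation of a member from its own mean over the libraries was 0.05, 0.10 and 0.10 on the log2 scale in Trp53_KO replicates 1, 2 and 3, and -0.11, -0.10 and -0.05 in Trp53_WT replicates 1, 2 and 3. All 3 Trp53_KO medians were positive and all 3 Trp53_WT medians negative.

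Levels between members were compared per kilobase of annotated transcript. Rps18 was highest, at 1070 CPM per kilobase in Trp53_KO and 906 in Trp53_WT, followed by Rpl8 (899 and 785) and Rps12 (881 and 781). The lowest were Rps20 (88.9 in Trp53_KO and 80.7 in Trp53_WT), Rpl24 (94.0 and 82.5) and Rps16 (150 in Trp53_KO and 109 in Trp53_WT). The annotated transcript of Rps20 is 3706 bases long, against 1109 for Rps16, 677 for Rpl24 and 560 for Rps18. Before division by length, Rps20 was at 330 CPM in Trp53_KO and 299 CPM in Trp53_WT, and Rpl24 at 63.7 and 55.9 CPM. The place of Rps20 as lowest therefore rests on the transcript length used. Across the 77 members the log2 fold change had Pearson's r of -0.06 with mean log2 CPM and 0.01 with log2 transcript length, as a description across genes that share the same libraries.

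Position on the chromosomes went with the members' differences. On chromosome X, 0 of 4 tested members were called and their median log2 fold change was -0.04, while the other 361 tested genes there had a median of -0.28, 46 higher and 166 lower. On chromosome 4, 4 of 5 members were higher with a median of 0.28, and the other 712 tested genes had a median of 0.18, with 34.0% higher. The members' median lay above that of the other genes on each of the 19 chromosomes that hold a tested member, by 0.10 to 0.31. Over these chromosomes the medians of members and of other genes had Pearson's r of 0.83 and Spearman's rho of 0.62. Over the 17 without chromosomes 4 and X, r was 0.56 and rho 0.48. Some of these medians rest on 1 member. Over the 77 single members, the log2 fold change and the median of the chromosome's other genes had r of 0.59 and rho of 0.44. All points come from the same 6 libraries. Without the members on chromosomes 4 and X the median log2 fold change of the family was 0.17, and relative to the other genes of each member's own chromosome it was 0.17.

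The X-linked member furthest from the rest was Rpl39 (37082520 to 37085402), which lines the exit tunnel. It was at 157.3, 187.3 and 177 CPM in Trp53_KO and 194.5, 197.3 and 196.8 CPM in Trp53_WT. All Trp53_KO libraries lay below all Trp53_WT libraries, yet the log2 fold change of -0.17 was not called (edgeR adjusted p = 0.103). Rpl10, needed for the last step of large subunit maturation, was at 391 ± 16 CPM in Trp53_KO and 402 ± 25 CPM in Trp53_WT. Rps4x was at 553 ± 21 CPM in Trp53_KO and 567 ± 19 CPM in Trp53_WT, and Rpl36a at 172 ± 7.2 CPM in Trp53_KO and 169 ± 5.4 CPM in Trp53_WT. The 4 genes together held 4.48%, 4.68% and 4.52% of member counts in Trp53_KO, against 5.26%, 5.29% and 5.27% in Trp53_WT.

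**Figure D4:**
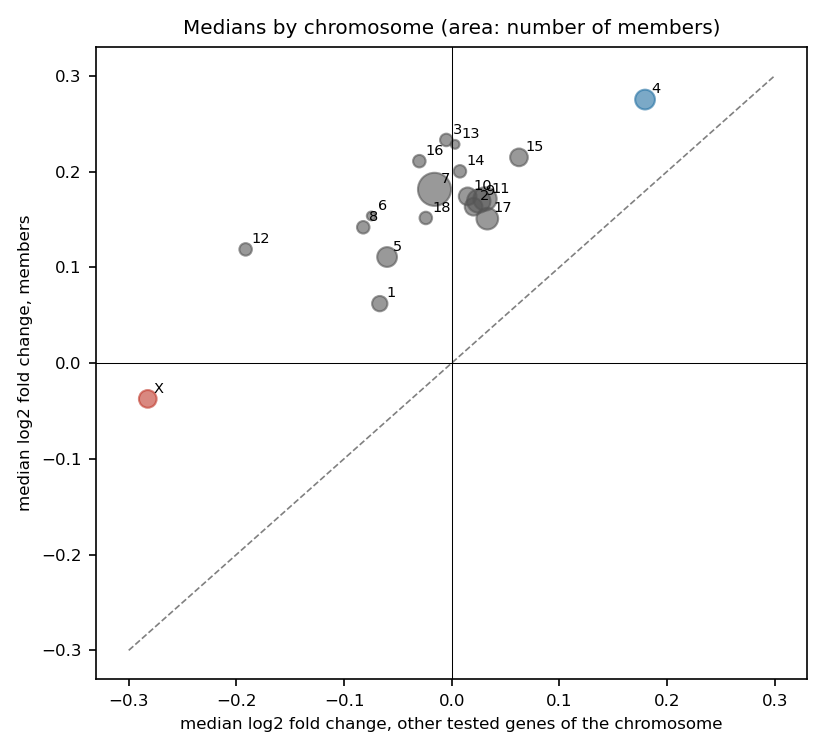
Median log2 fold change of members (y axis) against that of the other tested genes (x axis) for the 19 chromosomes with a tested member, point area showing the number of members and the dashed line equality. Every point lies above the line, with chromosome X lowest and chromosome 4 highest on both axes.

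Members with a close paralog showed how use was divided within a pair. Rps27l, a paralog of Rps27 that p53 is known to induce in human cells, lies on chromosome 9 (66946086 to 66949516). It was at 91.27, 93.02 and 85.1 CPM in Trp53_KO and 90.79, 96.64 and 97.84 CPM in Trp53_WT. The groups overlapped and the log2 fold change of -0.08 was not called (edgeR adjusted p = 0.403). Rps27 was at 194.4, 208.3 and 185.5 CPM in Trp53_KO and 163.7, 162.9 and 169 CPM in Trp53_WT, and was higher (0.25, edgeR adjusted p = 0.0168). Rps27 was not called once Trp53_KO replicate 1 or Trp53_WT replicate 2 was left out. Rps27l therefore took 32.0%, 30.9% and 31.4% of the pair's counts in Trp53_KO, against 35.7%, 37.2% and 36.7% in Trp53_WT, without overlap (exact two-sided permutation p = 0.1, 0.2 after adjustment over 4 pairs).

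Rpl22 (chromosome 4, 152325742 to 152334071) was at 194, 205.2 and 200.8 CPM in Trp53_KO and 144.6, 168.5 and 166.6 CPM in Trp53_WT, and was higher (log2 fold change 0.32, edgeR adjusted p = 0.00846). Its paralog Rpl22l1, outside the rule, was at 58.18, 67 and 53.4 CPM in Trp53_KO and 83.97, 83.63 and 88.41 CPM in Trp53_WT. It was lower (-0.52 ± 0.090, edgeR adjusted p = 0.00185), and neither gene's groups overlapped. In mouse, Rpl22 protein is known to repress Rpl22l1. Whether it did so here was not tested, and no protein was measured. Rpl22l1 took 23.1%, 24.6% and 21.0% of the pair in Trp53_KO, against 36.7%, 33.2% and 34.7% in Trp53_WT (exact two-sided permutation p = 0.1, 0.2 after adjustment over 4 pairs).

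The groups overlapped in the pair of Rpl36al and Rpl36a. Rpl36al took 26.8 ± 1.4% of the pair's counts in Trp53_KO and 27.5 ± 1.1% in Trp53_WT (exact permutation p = 0.5, n = 3 each). Rps27a, which encodes ubiquitin fused to a ribosomal protein, was higher by 0.25 (edgeR adjusted p = 0.0149), a call lost without Trp53_WT replicate 2.

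**Figure D5:**
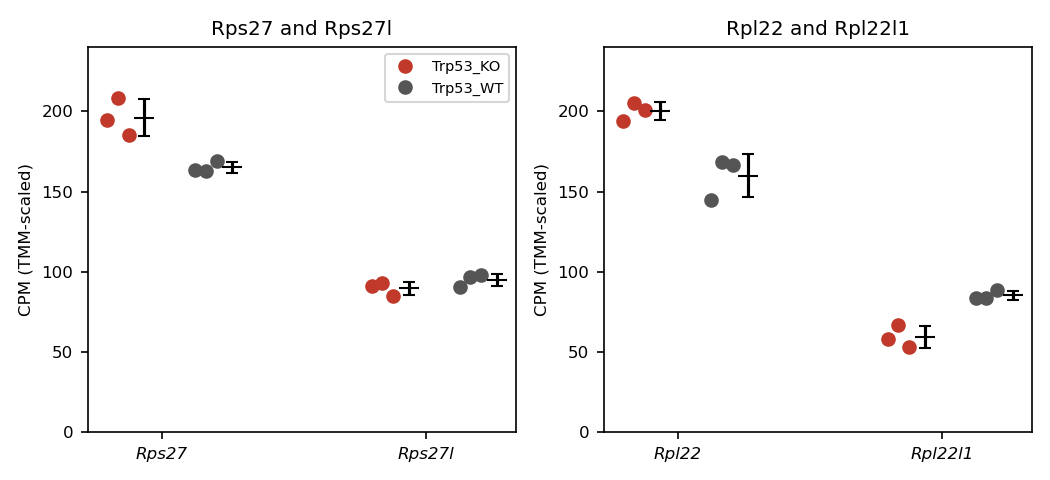
CPM by library of Rps27 and Rps27l (left) and of Rpl22 and Rpl22l1 (right), Trp53_KO left of Trp53_WT, with mean and SD of 3. Rps27 and Rpl22 are higher in all Trp53_KO libraries, Rps27l overlaps, and Rpl22l1 is lower in all Trp53_KO libraries.

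Among members grouped by role, 7 of 16 that bind Mdm2 were higher and 0 lower (median log2 fold change 0.17), beside 14.1% higher and 16.1% lower of all tested genes and 35 of 77 members. Of 17 members mutated in Diamond-Blackfan anaemia, a human failure of red cell production, 11 were higher and 0 lower (median 0.19). Rps19, the member most often mutated in it, was at 277.5 ± 5.0 CPM in Trp53_KO and 245.5 ± 6.9 CPM in Trp53_WT (log2 fold change 0.18, edgeR adjusted p = 0.0414). It was called in 6 of 17 settings, and the call was lost without any of the libraries other than Trp53_WT replicate 1.

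Genes that work with the members gave the following counts, beside the 14.1% higher and 16.1% lower of all tested genes. Of 21 translation factors and other genes with TOP messages, 5 were higher and 0 lower (median 0.12), among them Tpt1 (0.32, edgeR adjusted p = 0.00775) and Hnrnpa1 (0.36, edgeR adjusted p = 0.0113, not called without Trp53_KO replicate 2). Of 71 ribosome biogenesis genes, 15 were higher and 2 lower (median 0.14). Gnl2, a nucleolar GTPase gene on chromosome 4, was higher by 0.50 (edgeR adjusted p = 0.0020), and Utp14a, a small subunit processome gene on chromosome X, had a log2 fold change of -0.50 (edgeR adjusted p = 0.000801). Of 12 tested snoRNA host genes, whose introns hold guides for ribosomal RNA modification, 7 were higher and 0 lower (median 0.29), with Snhg5 at 144 ± 3.2 CPM in Trp53_KO and 114 ± 8.1 CPM in Trp53_WT. Of 8 genes of the 5S particle and subunit assembly, 2 were higher and 0 lower (median 0.06).

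Of 29 tested regulators of these genes or their messages, 4 were higher and 5 lower (median -0.06). Mtor, the kinase, on chromosome 4, was at 131 ± 9.7 CPM in Trp53_KO and 90.8 ± 10.5 CPM in Trp53_WT (log2 fold change 0.53, edgeR adjusted p = 0.0021). Of the sestrins, which restrain mTOR, Sesn1 was higher (0.72) and Sesn2 lower (-0.44). Myc, which activates ribosomal protein genes, was at 130 ± 9.2 CPM in Trp53_KO and 149 ± 16 CPM in Trp53_WT and was not called (-0.20, edgeR adjusted p = 0.125).

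Repeats inside the members were compared between the same genotypes by the authors. Of the rows below, 186 lay in introns, 103 in 3′ and 50 in 5′ untranslated regions, and 2 in exons. Reads of the same messages can enter both these rows and the gene counts, so this is not independent of the results above. In the authors' deposited table, 341 repeat rows were annotated to 66 members, and 0 had an FDR under 0.05, where 0.672% of all 773731 rows did. The median log fold change of the member rows in the authors' deposited table, whose base is not stated and was read as base 2, was 0.22, and the lowest FDR, 0.071, belonged to a B1_Mus1 element in an intron of Rpl3.

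Ribosomal protein genes have many near-identical processed copies, so reads can be split or lost between them, and no source used here says how such reads were counted. The 7 counted pseudogene rows held 0.024% of counts in Trp53_KO and 0.021% in Trp53_WT. A counted gene on the opposite strand overlapped 16 tested members, 7 of them called, among them Rps27a, Rpl3, Rps28 and Rps18. The strand setting of the counting is not given, so reads of a member and of its partner cannot be told apart by strand. Over the 6 libraries the partners held fewer counts than these members: Clhc1 42 against 36653 for Rps27a, Syngr1 2237 against 105487 for Rpl3, Kank3 866 against 14954 for Rps28, and Vps52 4845 against 60220 for Rps18. The called Rps25, at 27993, had partners Trappc4 at 4468 and Ccdc84 at 2373. For some members not called the partner came closer, for example Ube2s 14493 against 17814 for Rpl28 and Arpc5l 11450 against 26601 for Rpl35. What the overlaps add to the members' counts was not tested.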

How the data were processed

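Total RNA from 6 ID8 libraries was column-purified, treated with DNase and sequenced from strand-specific total RNA libraries, per the labels' protocols. The submitters' processing notes name STAR, featureCounts, edgeR and mm10. Versions and settings: not given in the sources used here. Raw counts for 41327 gene symbols were deposited by the authors, with no normalization. The authors' deposited table of repeats gives a log fold change, whose base no source states, and an FDR (adjusted p-value). The authors' deposited values were read as log2 because they were, at the median over 623 rows, 1.03 times the log2 fold change computed here for the same gene.

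Counts were fitted with edgeR 4.0.16 in R 4.3.3 (filterByExpr, 13651 genes tested, TMM, quasi-likelihood test, genotype as the only term), with Benjamini-Hochberg adjustment over all tested genes and a threshold of 0.05. Approximate standard errors were taken from the fold change and the square root of its F statistic. Shares per library were compared by exact permutation. Positions and transcript lengths were those of GENCODE M21 (GRCm38, equal to mm10).

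The members and the gene lists were chosen with earlier results of these data known, so lists are described by counts and medians and were not tested as sets. The genes named were the 8 members with the lowest adjusted p among those called, members with fixed roles or paralogs, the 3 highest and 3 lowest per kilobase, and up to 4 genes of each other list. Some genes are not reported here by name, while the counts, medians and shares include them. Rpl13a, Rpl36a, Rps19, Rps28, Rps29, Rpl4, Rpl28, Rpl35, Rpl36 and the remaining called members were named after their values were seen. Alternatives were other size factors and filters, the replicate number as a block, DESeq2 1.42.0, limma-voom from limma 3.58.1, stricter thresholds and each library left out.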

Additional observations from a re-analysis of the deposited data

How the results depend on the processing

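The count of 35 members called higher was 35 with RLE factors, 27 with upper quartile factors, 29 with library totals only, 35 with factors from non-members, 30 without a filter, 33 with a CPM filter, 31 with DESeq2 and 35 with limma-voom, and the calls made under each were among the 35. It was 6 at an adjusted p under 0.01 and 1 against a fold of 1.2. For these settings the share of all tested genes is not given. These counts are therefore not read as particular to the members. Leaving out each library gave 9 to 33 calls, median log2 fold changes of 0.156 to 0.202 for all members, 0.129 to 0.178 for the large and 0.179 to 0.226 for the small subunit, and a difference in member share of 0.254 to 0.364 percentage points. No setting called a member lower. Differences near 0 changed sign: over the fits without a library, Rpl10 ranged from -0.0900 to 0.0059 (positive without Trp53_WT replicate 3), Rps4x from -0.0543 to 0.0063 (positive without Trp53_KO replicate 1), and Rpl36a from -0.0067 to 0.0635 (negative without Trp53_KO replicate 3 and, at -0.0014, without Trp53_WT replicate 1). The cause was not tested. With the replicate number as a block, 25 members were called higher, all among the 35, again without the share of all tested genes. Deviations of same-numbered libraries from their group means had correlations of -0.05, 0.08 and -0.12, beside -0.08 to 0.13 for differently numbered ones. No pairing was seen, but 3 libraries a group cannot exclude it. The labels do not tie the numbers across genotypes. The median without chromosomes 4 and X and the median relative to each chromosome were added after seeing the data. The range of depth behind these values, 15319956 to 19954170 counts, and 3 libraries a group limit how small a difference could be called.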
